A study of Arabidopsis thaliana with 3 samples.

Results

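The genes described here are 10 early stress genes of Arabidopsis thaliana whose reads were followed cell by cell through lateral root primordia. They are the WRKY factors WRKY8, WRKY33, WRKY40 and WRKY53, the zinc finger factors ZAT10 and ZAT12, the ethylene response factors ERF5 and ERF6, the calmodulin-like protein CML37 and the membrane-binding protein BAP1. They were picked by gene ID from the 32833 genes of the count table, with earlier results of the same data known, so their levels are a description and none is tested. Each cell is a plate well with a read in at least 500 genes, a limit that kept 322 of 573 wells. The poorest well kept had 506 genes and the richest well left out had 486.

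The samples form 1 group. All cells came from roots of the wild-type accession Col-0 at 5 days after germination. The plants carried pHB53:NLS-3xmCherry, a nuclear red reporter driven by the promoter of the homeobox gene HB53. Roots were turned into protoplasts by removing the cell walls, and mCherry-positive cells were sorted, which the labels assign to primordium stages I to IV. The labels name 3 replicates, but wells are tied only to raw files and sequencing runs here, and which of these belong to which replicate is not stated, so all cells count as 1 sample and no p-value is given. Values are also given for the 3 flow cells, each with 2 plates, as technical batches. Every cell went through the same protoplasting and sorting, and no sample without these steps was analysed here. What the 10 genes do in an intact root was therefore not measured, and a response to the preparation cannot be told apart from a level present before it.

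Reads per cell ran from 8315 to 1459543 (median 245742) and genes with a read from 506 to 9516 (median 4009). Organelle-encoded genes took a median of 2.42% of a cell's reads. Median reads per cell were 408532, 440181 and 132330 on flow cells 1, 2 and 3. The primordium label was checked on its markers. LBD16, a factor that starts lateral root formation, had a read in 36.0% of cells, and HB53, whose promoter drives the reporter, in 11.5%. Of the 16 lateral root regulators listed, IAA28 (58.4%) and LRP1 (55.9%) were read most widely, while PUCHI (9.01%), LBD18 and LBD29 (0.932% each) were read in few cells and GATA23 in none. Markers of xylem, cortex, epidermis and root cap were each read in few cells. The most widely read of these 10 genes were AT1G09750 (4.66% of cells) and GL2 and SHV2 (1.86% each). Reads of 2 or more of the 10 were found in 2 of 322 cells (0.621%). The list pools several tissues, so a cell of a single tissue need not reach 2.

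In a plant cell that is wounded, touched, chilled or attacked, calcium enters the cytosol, reactive oxygen is made and mitogen-activated protein kinases are switched on within minutes. A first wave of transcripts follows, in which WRKY factors bind the W box, ERF factors bind the GCC box and ZAT factors repress other genes, often while the plant adjusts growth against defence. Such transcripts are known to be short-lived and to rise also when cell walls are digested.

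The 250 bases before the annotated transcription start are shown for the 5 genes that were read in most cells, because the 10 genes include factors of the families that bind 2 of the motifs searched. Sequences and positions are from the RefSeq annotation of assembly TAIR10.1 and run 5′ to 3′ on the strand of the gene. Capitals mark the W-box core, TTGAC or its reverse complement GTCAA, and the GCC box, GCCGCC or its reverse complement GGCGGC.
ZAT12: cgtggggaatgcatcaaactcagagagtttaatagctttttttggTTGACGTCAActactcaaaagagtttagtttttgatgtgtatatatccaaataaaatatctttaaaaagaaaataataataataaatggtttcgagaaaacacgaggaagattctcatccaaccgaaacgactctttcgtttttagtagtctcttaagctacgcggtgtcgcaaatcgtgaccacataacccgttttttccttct
ZAT10: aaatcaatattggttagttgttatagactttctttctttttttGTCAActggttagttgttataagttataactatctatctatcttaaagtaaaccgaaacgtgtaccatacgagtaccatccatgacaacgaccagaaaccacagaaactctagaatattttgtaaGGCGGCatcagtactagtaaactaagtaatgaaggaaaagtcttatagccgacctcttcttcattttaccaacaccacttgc
WRKY40: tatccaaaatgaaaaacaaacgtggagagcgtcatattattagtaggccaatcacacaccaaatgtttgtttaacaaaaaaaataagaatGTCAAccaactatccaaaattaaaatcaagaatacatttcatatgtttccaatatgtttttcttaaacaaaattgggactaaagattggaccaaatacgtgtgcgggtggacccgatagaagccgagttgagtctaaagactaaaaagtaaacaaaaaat
WRKY33: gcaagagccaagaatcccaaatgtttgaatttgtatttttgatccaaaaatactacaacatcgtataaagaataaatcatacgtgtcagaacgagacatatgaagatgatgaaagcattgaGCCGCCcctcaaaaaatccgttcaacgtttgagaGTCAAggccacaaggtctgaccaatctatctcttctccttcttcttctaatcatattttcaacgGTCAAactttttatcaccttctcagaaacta
CML37: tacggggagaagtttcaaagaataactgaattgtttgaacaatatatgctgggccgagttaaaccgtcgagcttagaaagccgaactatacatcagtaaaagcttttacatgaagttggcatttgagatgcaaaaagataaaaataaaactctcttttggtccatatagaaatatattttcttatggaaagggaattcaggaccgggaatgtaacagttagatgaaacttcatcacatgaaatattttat
These windows are, in the same order, chr5:24102564-24102813 (plus strand), chr1:9649324-9649573 (minus strand), chr1:30383311-30383560 (plus strand), chr2:16107985-16108234 (plus strand) and chr5:16943821-16944070 (minus strand). In the ZAT12 window the 2 W-box cores abut on opposite strands, with first bases 205 and 200 bases before the start. Together they read the same on both strands, so 1 palindromic stretch gives both matches. WRKY33 had W-box cores at 95 and 31 bases and a GCC box at 129 bases, ZAT10 had a core at 207 and a GCC box at 82 bases, and WRKY40 had a core at 160 bases. CML37 had neither motif. Over the 10 genes, 7 had at least 1 W-box core in this window, against 44.3% of 32546 genes, and 3 (WRKY33, WRKY53 and ZAT12) had at least 2, against 13.5%. The GCC box was found in 2 of the 10, against 1.90% of genes. The rapid stress response element CGCGTT was found in 0 of the 10, against 2.52% of genes, and the G-box CACGTG in 0, against 5.90%. All motifs were searched on both strands. A match is a run of letters and not a shown binding site.

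The 10 genes fell into a widely read and a sparsely read set. ZAT12, ZAT10, WRKY40, CML37 and WRKY33 each had a read in more than 50% of cells, as did 7.78% of the 28046 genes with a read in any cell, and the other 5 genes had a read in 10.2% to 25.8%. Levels are in CPM, the reads of a gene over all reads of that cell, scaled to a total of 1000000. The 5 widely read genes made up 94.7% of the summed CPM of all 10. The summed level had a median of 2081 CPM per cell and ran from 0 to 17991 CPM. Of the 251 wells under the gene limit, with a median of 3922 reads, 34 (13.5%, exact 95% interval 9.57 to 18.4) held a read of any of the 10 genes. Pooled, the 10 genes took 367 CPM in those wells and 2939 CPM in the cells, so reads of these genes were scarcer in wells under the limit.

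**Figure D1:**
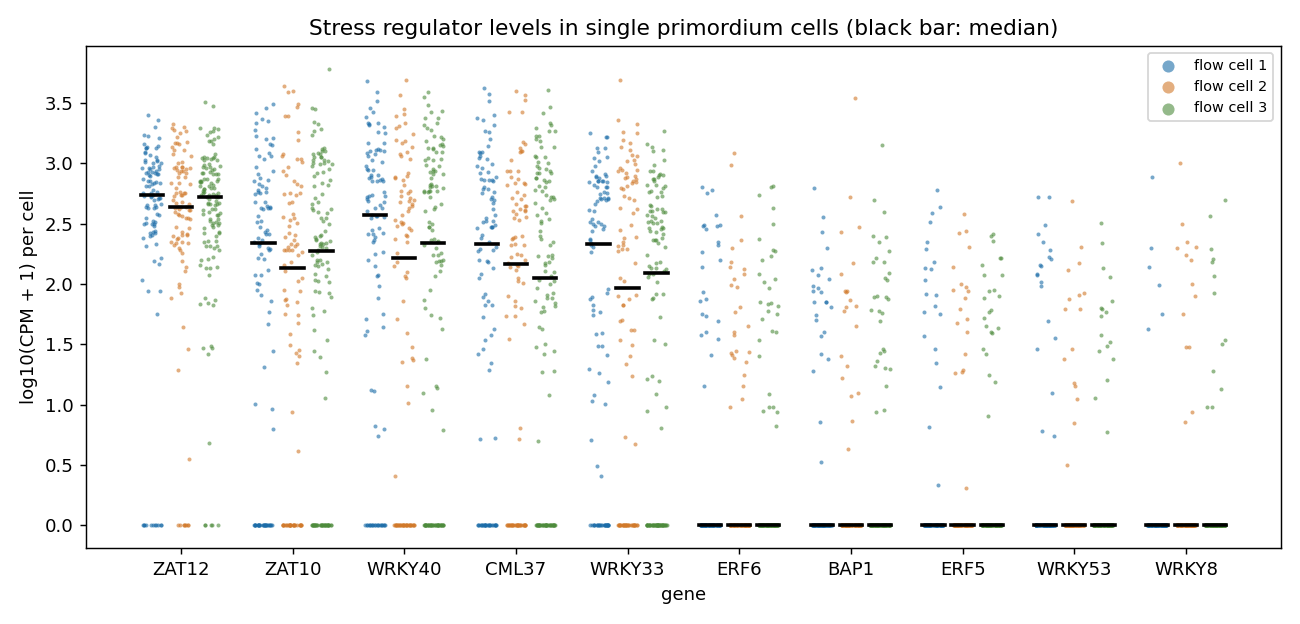
Level of each gene in each of the 322 cells, as log10(CPM + 1), with 1 column of points per flow cell and a black bar at the median. ZAT12 stands well above 0 in nearly all cells, the next 4 genes split into cells with and without reads, and the medians of ERF6, BAP1, ERF5, WRKY53 and WRKY8 are 0.

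ZAT12 (AT5G59820, RHL41 in RefSeq; chromosome 5, 24102814 to 24103794, plus strand) encodes a zinc finger repressor known from the response to high light, cold and oxidative stress. It was read in 298 of 322 cells, 92.5% (exact 95% interval 89.1 to 95.2), and 53rd among all genes by number of cells. On flow cell 1 its level ran from 0 to 2515 CPM with a median of 544. On flow cell 2 it ran from 0 to 2110.5 CPM with a median of 435, and on flow cell 3 from 0 to 3212 CPM with a median of 522. The 3 flow cells overlapped almost wholly, and the mean level was 600 to 647 CPM on each. No small group of cells carried the signal, since the 10 cells with the most ZAT12 reads held 17.0% of them. ZAT12 was the most evenly read of the 10 genes by that share. Such shares are of raw reads, so they also depend on the total reads of each cell.

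ZAT10 (AT1G27730, STZ in RefSeq; chromosome 1, 9648021 to 9649323, minus strand) is a related repressor known from salt and drought tolerance. Reads of ZAT10 were found in 72.0% of cells (66.8 to 76.9). Its median was 216 CPM on flow cell 1, 135 on flow cell 2 and 188 on flow cell 3, and its highest cell reached 3115, 4334 and 6074 CPM, with 0 as the lowest on each. Its mean was nearly the same on the 3 flow cells, 480 to 488 CPM. Unlike ZAT12 it had no read in 90 cells, while its upper quartile was 593 CPM.

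WRKY40 (AT1G80840; chromosome 1, 30383561 to 30385499, plus strand) is a repressor that acts with WRKY18 and WRKY60 in defence and abscisic acid responses. Reads of WRKY40 were found in 71.4% of cells (66.2 to 76.3). The median was 369 CPM on flow cell 1, 165 on flow cell 2 and 216 on flow cell 3, and the highest cells had 4818, 4910 and 3912 CPM. Its mean of 600 CPM was close to that of ZAT12, but WRKY40 was read in fewer cells. The 10 cells with the most WRKY40 reads held 35.8% of its raw reads.

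WRKY33 (AT2G38470; chromosome 2, 16108235 to 16110766, plus strand) switches on camalexin synthesis and is needed against necrotrophic fungi. Of the cells, 68.3% (62.9 to 73.4) had a WRKY33 read. The median was 214 CPM on flow cell 1, 92.7 on flow cell 2 and 123 on flow cell 3, and the highest cells had 1785, 4923 and 1850 CPM. Among plates the mean of WRKY33 ran from 223 to 605 CPM, the widest spread between plates of the 5 widely read genes.

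WRKY53 (AT4G23810; chromosome 4, 12392370 to 12393982, minus strand), known as a regulator of leaf senescence, was read in 53 cells, 16.5% (12.6 to 21.0). Its highest level was 526 CPM on flow cell 1, 483 on flow cell 2 and 321 on flow cell 3, and its median was 0 on each. WRKY8 (AT5G46350; chromosome 5, 18801164 to 18804056, minus strand), known from salt stress and virus defence, was read in 33 cells, 10.2% (7.16 to 14.1), the fewest of the 10. Its share of cells was 5.88% on flow cell 1, 14.6% on flow cell 2 and 10.5% on flow cell 3, with overlapping intervals. Few cells carried these genes: the 10 richest cells held 78.4% of the WRKY8 reads and 69.5% of the WRKY53 reads. Where WRKY8 was read at all, its median was 98.5 CPM, above the 62.6 to 77.2 CPM of the other sparsely read genes.

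WRKY33, WRKY40 and WRKY53 each share bases with genes on the opposite strand, which are AT2G08965 and AT2G38480 for WRKY33, AT1G80850 for WRKY40 and AT4G23800 for WRKY53. Without a stated strand setting of the counting, reads from the shared bases cannot be told apart. The other 7 genes overlap no annotated gene.

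ERF6 (AT4G17490; chromosome 4, 9752824 to 9754161, minus strand) and ERF5 (AT5G47230; chromosome 5, 19179881 to 19181182, plus strand) are close relatives that are phosphorylated by stress-activated kinases and act in defence and in growth arrest under osmotic stress. ERF6 was read in 25.8% of cells (21.1 to 30.9) and ERF5 in 19.9% (15.7 to 24.7). The highest ERF6 cell had 640 CPM on flow cell 1, 1224 on flow cell 2 and 645 on flow cell 3. The highest ERF5 cell had 605, 380 and 256 CPM. Both had a median of 0 on every flow cell, and their shares of cells moved little between flow cells, 24.5% to 28.1% for ERF6 and 19.4% to 20.6% for ERF5. Reads that fit both copies could be assigned to either gene, and how such reads were counted is not given here.

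CML37 (AT5G42380; chromosome 5, 16942447 to 16943820, minus strand) is a calcium-binding sensor needed for jasmonate defence against chewing insects. It was read in 70.5% of cells (65.2 to 75.4). The median was 213 CPM on flow cell 1, 146 on flow cell 2 and 112 on flow cell 3, and the highest cells had 4204, 3958 and 4070 CPM. BAP1 (AT3G61190; chromosome 3, 22650159 to 22651636, minus strand) is a C2-domain protein that works with BON1 to hold back cell death. It was read in 23.9% of cells (19.4 to 29.0), with a highest cell of 629, 3504 and 1430 CPM on the 3 flow cells. A single cell held 21.4% of all raw BAP1 reads. The mean BAP1 level of 40.7 CPM rested on few cells, with a median of 0 and a highest cell of 3504 CPM.

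Genes were compared with each other per kilobase of annotated exon. On that scale the mean level over all cells was 641 CPM per kilobase for ZAT12, 453 for WRKY40, 371 for ZAT10, 346 for CML37 and 170 for WRKY33. The ranges over flow cells did not overlap between neighbours in this order, except for ZAT10 (368 to 375) and CML37 (323 to 390). A wide step followed, to 32.4 CPM per kilobase for ERF6, 29.0 for BAP1, 17.45 for ERF5, 12.5 for WRKY8 and 12.1 for WRKY53. Each neighbouring pair within these 5 overlapped over flow cells, so the order of neighbours is not resolved. The range of ERF6 (27.4 to 37.6) lay wholly above those of ERF5 (13.6 to 23.7), WRKY8 (9.24 to 19.5) and WRKY53 (6.77 to 20.8). BAP1 (19.8 to 41.1) lay above WRKY8 but overlapped ERF5 and WRKY53. In the 257 cells with at least 115851 reads, ZAT12 was read in 94.9%, CML37 in 72.4% and WRKY8 in 10.9%. After the same cells were thinned to 115851 reads each, the shares were 94.9%, 70.4% and 10.9%.

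The median cell had reads of 5 of the 10 genes, and 181 of 322 cells, 56.2% (50.6 to 61.7), had 5 or more. The share was 55.9%, 58.3% and 54.8% on flow cells 1, 2 and 3, and 56.0% in the thinned cells. All 5 widely read genes were found together in 120 cells (37.3%), and at least 1 of the sparsely read 5 in 191 cells (59.3%). Only 19 cells had 8 or 9 of the genes and none had all 10. At the other end, 12 cells had none. These 12 had a median of 922 genes with a read and 22.8% of reads from organelle genes, against a median of 4120.5 genes and 2.24% in the 64 cells with 5 of the genes. The part of cell quality in the empty cells was not tested.

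**Figure D2:**
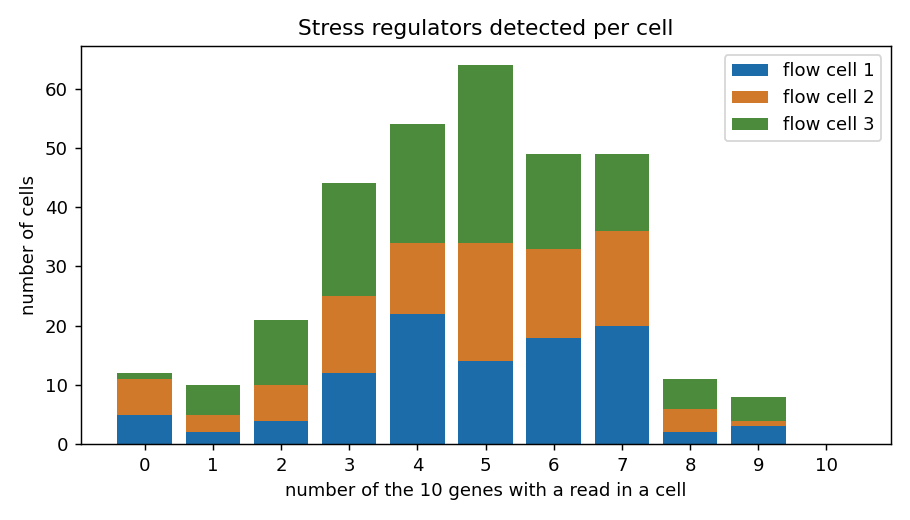
Number of the 10 genes with a read in a cell (horizontal) and number of cells (vertical), stacked by flow cell. The bars peak at 5 genes with 64 cells, and the 12 cells without any of the genes form a small bar at the left edge.

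The genes varied together to different degrees. For each pair, Spearman's correlation of CPM was computed across the cells of each flow cell (102, 96 and 124 cells) and averaged, as a description, since cells of a flow cell share library preparation and differ in depth. The median over the 45 pairs was 0.15, and over all pairs of the 7702 other genes with a read in at least 20% of cells it was 0.10. A correlation of at least 0.3 was reached by 9 of 45 pairs, against 1.52% of those other pairs. The 9 were among the 21 pairs of the 7 genes that also had a read in at least 20% of cells. The highest was between ZAT12 and CML37 at 0.46 (0.49, 0.46 and 0.42 on the 3 flow cells). CML37 was read in 74.8% of the 298 cells with ZAT12 and in 16.7% of the 24 without it. The 24 include the 12 cells in which none of the 10 genes was read, and the part of cell quality in this contrast was not tested.

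ZAT10 stood in 4 of the 9 pairs. It correlated with WRKY40 at 0.40, CML37 at 0.40, BAP1 at 0.39 and ERF6 at 0.37. BAP1 was read in 30.6% of the 232 cells with ZAT10 reads and in 6.67% of the 90 cells without, and ERF6 in 33.2% and 6.67%. The 90 also include the 12 cells without a read of any of the 10 genes. The other high pairs were CML37 with BAP1 at 0.36, ERF6 with BAP1 at 0.31, WRKY33 with WRKY40 at 0.31 and ERF6 with CML37 at 0.30. The related ERF5 and ERF6 reached 0.22, and ZAT10 with ZAT12 reached 0.25, so neither of these pairs was among the 9 highest. Of the pairs of WRKY genes, only WRKY33 with WRKY40 was among them. Pair values also differed with how widely the genes were read. The median was 0.28 over pairs of widely read genes and 0.15 over mixed pairs. It was 0.09 over pairs of sparsely read genes, such as ERF5 with ERF6. Whether relatives vary more closely together at equal detection was not tested. Against the summed rank of the other 9 genes, CML37 came first at 0.56 and ZAT10 next at 0.51, followed by WRKY40 at 0.44, ERF6 and BAP1 at 0.38 each, ZAT12 at 0.35, WRKY33 at 0.33, ERF5 at 0.28 and WRKY53 at 0.23.

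WRKY8 stood outside this pattern. Its correlation with the summed rank of the other 9 was -0.03, and none of its 9 pairs was positive on all 3 flow cells, whereas 28 of the 36 pairs without it were. The median was -0.04 over its 9 pairs and 0.22 over the other 36. ERF6 was read in 2 of the 33 cells with WRKY8 (6.06%) and in 28.0% of the 289 cells without it, a pair correlation of -0.15 (-0.14, -0.19 and -0.13). With reads in 33 cells the WRKY8 values are thin, and a weak correlation there is no finding.

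**Figure D3:**
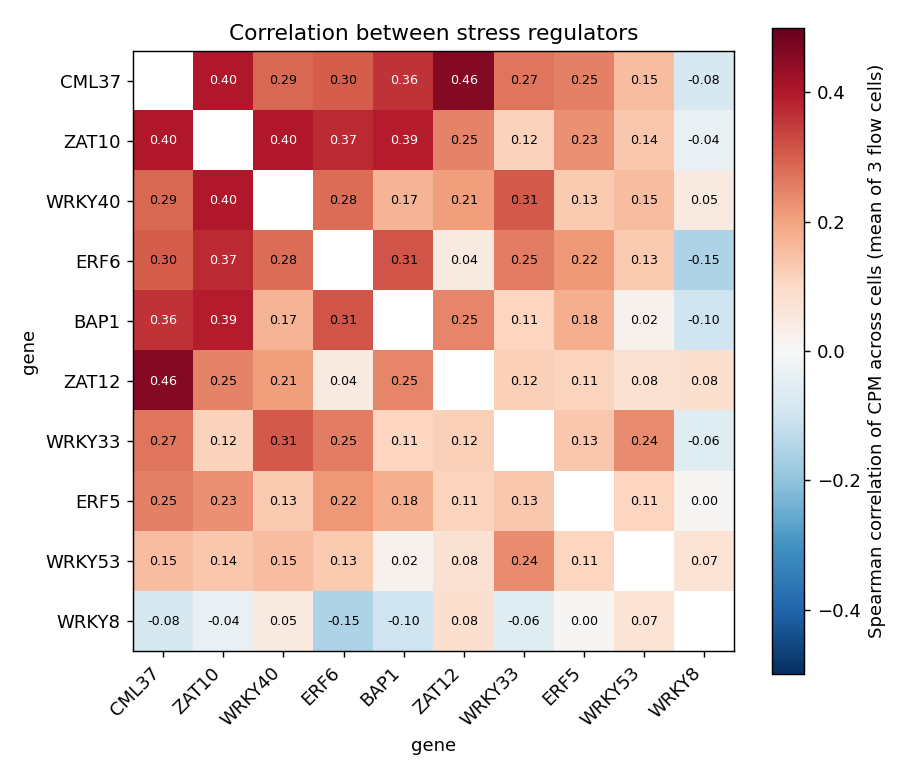
Spearman correlation of CPM across cells for each pair of the 10 genes, as the mean over 3 flow cells, with rows and columns ordered by the correlation with the other 9 genes. Red squares fill the corner of CML37, ZAT10 and WRKY40, up to 0.46 for ZAT12 with CML37, and the WRKY8 row is near 0 or below.

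Cell quality moved with some of these levels. The correlation with the number of genes read in a cell ran from -0.11 for ZAT12 to 0.31 for WRKY33 and was above 0 for 8 of the 10 genes. The correlation with total reads ran from 0.02 for ERF6 to 0.19 for ZAT12 and was above 0 for all 10. The correlation with the organelle share ran from -0.25 to -0.01 and was below 0 for all 10. These are means over flow cells. On single flow cells the organelle value reached 0.04 for WRKY53, 0.06 for ERF5 and 0.04 for ERF6. After thinning, which also left out 65 cells, the median pair correlation was 0.16, and the ZAT12 with CML37 value stayed at 0.46. Other values fell. The median went from 0.28 to 0.23 over pairs of widely read genes and from 0.15 to 0.12 over mixed pairs. Over pairs of sparsely read genes it went from 0.09 to 0.08. WRKY40 with ZAT10 fell from 0.40 to 0.35, and ERF6 with CML37 from 0.30 to 0.29, under the limit of 0.3. The part of the organelle share in the pair values was not tested.

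Levels were then set against the tissue and cell cycle phase that other genes marked. A cell belonged to a marker class when at least 2 genes of a marker list had a read, and a cell could belong to several classes. For each of the 10 genes the mean log2(CPM + 10) of the class was compared with that of all other cells. A gene was called where the difference was at least 1 and its sign was shared by the 3 flow cells. Of the 10 genes, 7 passed the filter of a read in 20% of cells and could be called, and WRKY8, WRKY53 and ERF5 did not.

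The pericycle is the layer that gives rise to lateral roots, and its marker class rested on SKOR, PHO1, MYB68 and AT1G32450 (NRT1.5 in RefSeq). PHO1, the most widely read of them (117 cells), itself correlated with the summed rank of the 10 genes at 0.30, and SKOR overlaps a gene on the opposite strand, AT3G02840. The class held 57 cells, in which CML37, WRKY33 and WRKY40 were called higher, 3 of 7, against 5.11% of all genes tested. CML37 was read in 94.7% (85.4 to 98.9) of these cells and in 65.3% (59.2 to 71.0) of the other 265, with median levels of 541 and 98.4 CPM. The difference of its log2 means was 2.09 (2.05, 2.34 and 2.03 on the 3 flow cells), beside SDs between cells of 2.16 in the class and 2.79 outside. WRKY33 was read in 87.7% against 64.2% of cells, with medians of 334 and 75.2 CPM and a difference of 1.56 (0.97, 1.80 and 1.81). WRKY40 was read in 84.2% against 68.7%, with medians of 530 and 224 CPM and a difference of 1.24 (0.54, 1.89 and 1.34). The WRKY40 call was lost among wells with at least 2000 genes (0.996), without flow cell 2 (0.971) and with at least 3 markers (0.31). Cells of both kinds overlapped widely for all 3 genes.

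The other 4 genes that could be called had differences of 0.91 (BAP1), 0.89 (ZAT12), 0.86 (ZAT10) and 0.79 (ERF6), positive on each flow cell but under 1. The median difference over all 7708 genes tested was 0.22, and 7 of 7 lay above it. No gene of the 10 was called lower, as were 0.0389% of all genes. Pericycle marker cells had a median of 4714 genes with a read against 3814 in the others, and the part of that difference was not tested. In thinned cells CML37 differed by 1.81, WRKY40 by 1.18 and WRKY33 by 1.04, and CML37 and WRKY40 were called. Without SKOR among the markers the same 3 genes were called in 42 cells. Without PHO1, in 20 cells, CML37 (2.50) and WRKY33 (1.53) were called together with ZAT10, ZAT12 and BAP1, but WRKY40 (0.34) was not. These 2 settings were added after the data had been seen. The count was 6 without flow cell 3, 7 with a pseudocount of 1 CPM, and 1 with a pseudocount of 100 CPM or with the ratio of mean CPM. CML37 was past 1 in each of those settings, with 1.13 at 100 CPM and 1.02 as a ratio of means.

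The 55 cells with markers of G2 and M phase, when a cell prepares for and goes through division, had less CML37. It was read in 56.4% (42.3 to 69.7) of them and in 73.4% (67.7 to 78.6) of the other 267, with medians of 53.6 and 178 CPM. The difference was -1.04 (-1.02, -0.26 and -1.68), 1 of 7 genes called lower against 0.259% of all genes. No gene was called higher, against 4.72%. ZAT12 differed by -0.76 (-0.15, -1.12 and -0.91), with medians of 365 and 548 CPM, which did not reach the limit. None of the 7 genes lay above the median of all genes, which was 0.28. The CML37 call was lost without flow cell 3 (-0.64), with at least 3 markers (-0.81), with ratios of mean CPM (-0.68) and with a pseudocount of 100 CPM (-0.51). Without flow cell 1, ZAT12 was called beside CML37. With at least 3 markers, in 31 cells, ZAT12 was called in place of CML37, and with ratios of mean CPM BAP1 was. Which gene was called thus changed with the setting.

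In S phase marker cells (118 cells) none of the 7 genes was called higher or lower, against 11.0% and 0.260% of all genes. ZAT12 had the lowest difference at -0.38, with medians of 351 CPM in the class and 574 outside, and its direction was not the same on the 3 flow cells (0.31, -0.85 and -0.64). Vascular precursor marker cells (196 cells), where 3.08% of genes were called higher and 0.0260% lower, and phloem marker cells (112 cells), where 0.999% and 0.0259% were, held no called gene either. The largest difference in the vascular class was 0.82 for WRKY33 and in the phloem class 0.69 for ZAT12. In the 21 endodermis marker cells 0 of 7 genes were called, against 15.0% higher and 0.337% lower, with WRKY33 highest at 0.93.

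Cells with at least 2 lateral root regulators, a list led by IAA28, LRP1 and the PLETHORA gene AIL6, made up 261 of the 322 cells. WRKY40 (1.47), WRKY33 (1.24) and ZAT12 (1.16) were called higher in them, 3 of 7, and none lower, against 22.4% higher and 0.0519% lower of all genes. The class had a median of 4475 genes with a read and the other 61 cells had 2290. Among wells with at least 2000 genes the differences were 0.083 for WRKY40, -0.26 for WRKY33 and -0.042 for ZAT12, and 0 genes were called, as in thinned cells. The 3 calls of this class were thus lost among cells with more genes read.

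**Figure D4:**
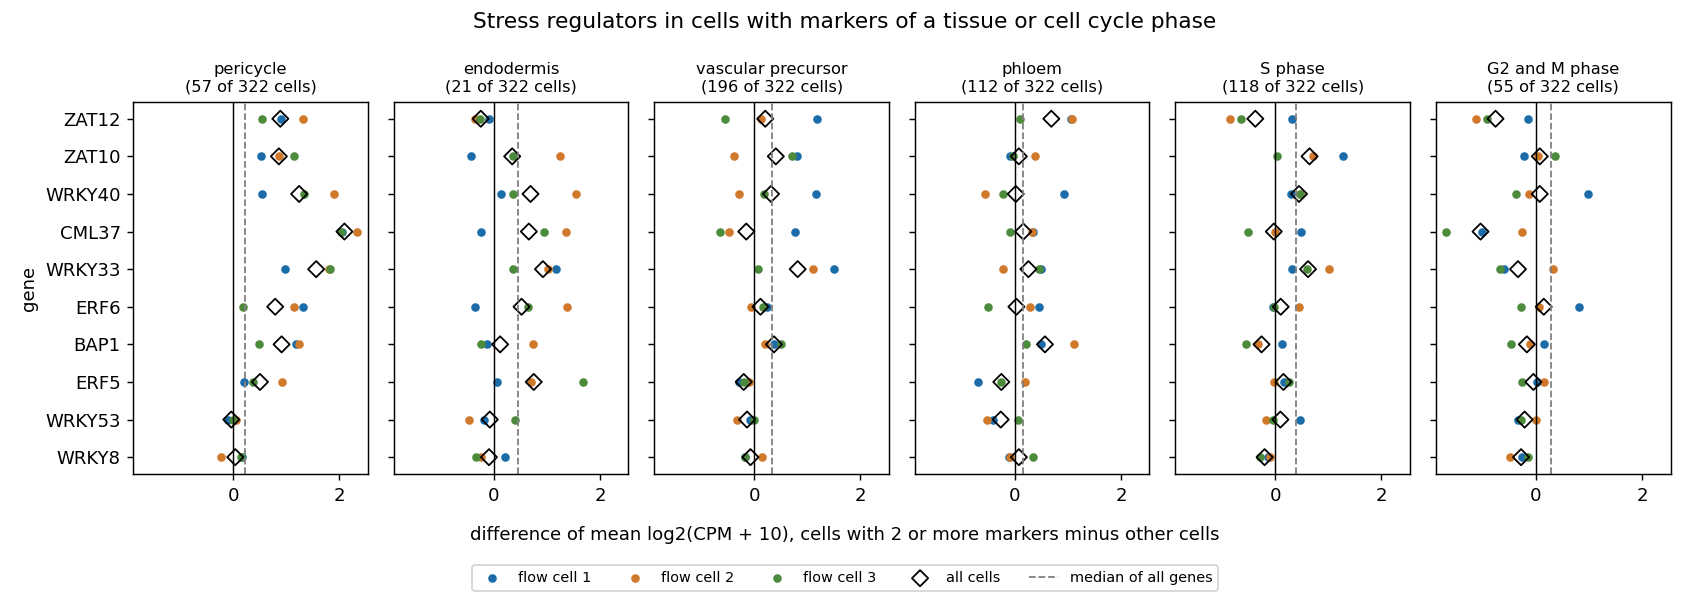
Difference of the mean log2(CPM + 10) between cells with at least 2 markers of a class and all other cells, for each of the 10 genes, with a coloured point per flow cell, a diamond for all cells and a dashed line at the median of all genes tested. CML37 lies near 2 in the pericycle panel on all 3 flow cells and below 0 in the G2 and M phase panel.

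The genes that most resembled the 10 were found by the mean, over flow cells, of the Spearman correlation between a gene's CPM and the summed rank of the 10 genes. Of 7702 other genes with a read in at least 20% of cells, 179 (2.32%) reached 0.3, and the median was 0.07. The highest values were 0.55 for AT4G29780, annotated as a nuclease, and 0.55 for the glycine-rich protein gene AT1G07135. Next were AT3G02840 (0.53), which overlaps the pericycle marker SKOR on the opposite strand, AT1G25400 (0.52), AT2G25460 (0.52) and AT3G10930 (0.51). They were followed by TCH4 (0.51), the touch gene for a xyloglucan-modifying wall enzyme, DIP2 (0.51), the calcium-binding EF-hand gene AT3G29000 (0.50) and BPS3 (0.50). All 10 were positive on each flow cell, and 8 of them stayed among the 10 highest in thinned cells.

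Single genes had partly different nearest neighbours. CML37 was nearest to TCH4 (0.54) and AT1G18740 (0.53), ZAT12 to BPS3 (0.51) and the heat shock factor gene HSF4 (0.49), and ZAT10 to AT3G57450 (0.49) and AT3G10930 (0.46). WRKY40 was nearest to AT1G69890 (0.47) and JAZ1 (0.44), a jasmonate repressor, and WRKY33 to the cytochrome P450 gene CYP706A2 (0.46) and PCK1 (0.45), a gluconeogenesis enzyme. BAP1 was nearest to AT5G66650 (0.42), annotated as a calcium uniporter, and NUDT21 (0.39), and ERF6 to MKK9 (0.41), a kinase of the stress cascade, and the EF-hand gene AT4G27280 (0.40). The values were lower for ERF5 (AT2G32200 at 0.35 and AT1G25400 at 0.32) and WRKY53 (AT1G71520 at 0.28 and CYP706A2 at 0.27). WRKY8, read in 33 cells, had AT1G30700 (0.34) and HIPL2 (0.33) as its nearest. Among the 2 nearest genes of each of the 10, only CYP706A2 was shared, between WRKY33 and WRKY53.

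Relatives and partners were read from 10 lists, chosen with earlier results known. For comparison, 7.78% of all genes with a read in any cell were read in at least 50% of cells. Of all 7702 other genes at the 20% filter, 2.32% reached a correlation of 0.3 with the summed rank. Among 21 other stress WRKY genes, 7 were read in at least 50% of cells and 11 passed the 20% filter, of which 4 reached 0.3, with a median of 0.27. The most widely read were WRKY48 (88.8% of cells), WRKY23 (81.1%), WRKY15 (80.7%) and WRKY18 (70.5%), the partner of WRKY40. WRKY60, the other partner, was read in 0.932% of cells. Among 9 other ZAT and AZF genes 5 passed, with a median of 0.27, and 2 reached 0.3. ZF2 (62.7%), ZAT6 (61.8%), AT3G53600 (60.2%) and ZAT11 (40.1%) were read most widely, and ZF2 followed the 10 genes most closely at 0.43.

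Among 23 other stress ERF genes 9 passed, with a median of 0.34, and 5 reached 0.3. ERF4 (92.2% of cells), a repressor, and DREB2A (91.9%), a drought and heat regulator, were read far more widely than ERF5 and ERF6, followed by ERF3 (68.0%) and ERF-1 (46.6%). Of 11 other calmodulin-like genes 6 passed, with a median of 0.25, and 1 reached 0.3. TCH3 (82.3%), CML38 (79.8%), TCH2 (54.97%) and CML42 (48.8%) were read most widely, and CML38, a close relative of CML37, had the highest correlation of the list at 0.48. For BAP1, its relative BAP2 had reads in 27.0% of cells, and of the BON genes BON2 had reads in 36.0%, BON3 in 2.80% and BON1 in 0.311%. BON1 overlaps another gene on the same strand, so its reads cannot be assigned with certainty. These 2 passed the filter, with a median of 0.24, and neither reached 0.3.

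Of 12 kinases and partner proteins 9 passed, with a median of 0.15, and 1 reached 0.3. That gene was MPK3 (60.6% of cells, 0.39), and CPK5 (57.5%), CPK6 (44.4%) and MPK6 (44.1%) lay at 0.08, 0.08 and 0.07. Of 15 targets and outputs 8 passed, with a median of 0.19, and 3 reached 0.3. APX1 (95.7%), a peroxide scavenger, RBOHD (79.5%), the oxidase that makes reactive oxygen, and the ethylene synthesis genes ACS6 (64.6%) and ACS2 (54.97%) were read most widely. PAD3, the camalexin enzyme under WRKY33 control, was read in 6.83% of cells.

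Of 14 jasmonate and wound genes 10 passed, with a median of 0.25, and 3 reached 0.3. JAZ1 (93.2% of cells) was the highest at 0.45, while JAZ10 (72.4%), LOX3 (65.8%) and OPR3 (61.5%), the next most widely read, stayed under 0.3. Of 10 touch and other early genes 7 passed, with the highest median of the 10 lists, 0.39, and 4 reached 0.3. They were TCH4, SZF1, CZF1 (89.4%) and NHL3 (85.7%), while ATAF1 (94.4%) lay at 0.28. Of 10 heat shock genes 7 passed, with a median of 0.19, and 1 reached 0.3. HSFB2A (57.8%), MBF1C (50.9%), HSP90.1 (42.9%) and HSP101 (42.2%) were read most widely. All 10 list medians lay above the median of all genes, and since the genes share the same cells and libraries this is a description with no test.

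**Figure D5:**
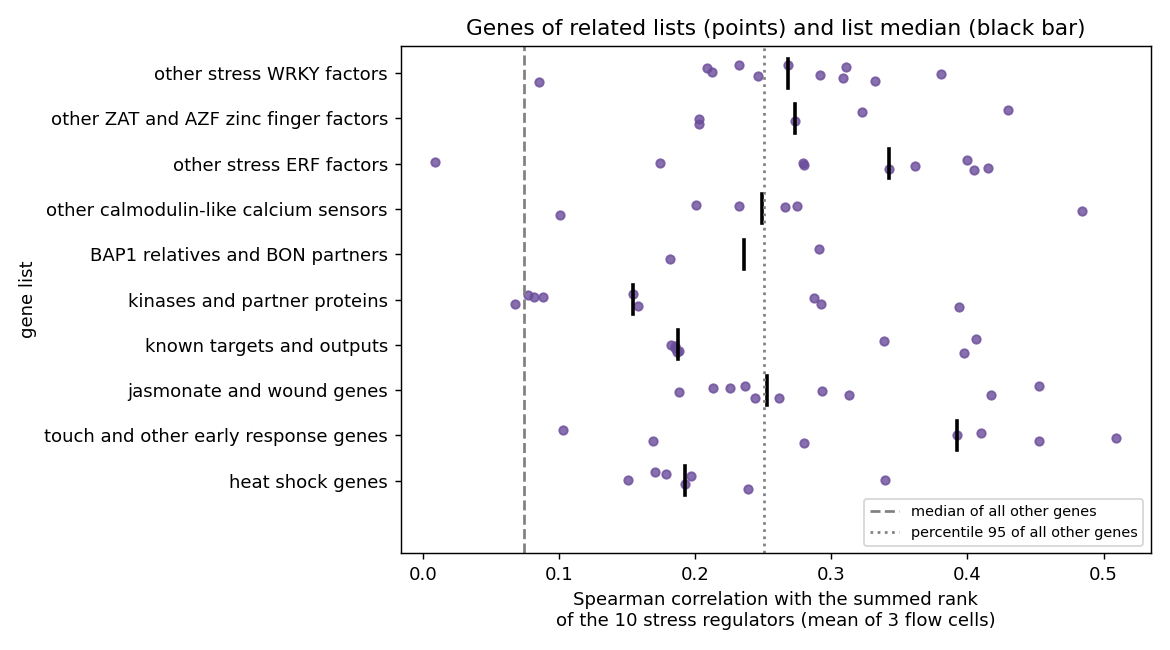
Correlation of each gene of the 10 related lists with the summed rank of the 10 stress regulators (points), the list medians (black bars), and the median and percentile 95 of all other genes (dashed and dotted lines). Touch and other early response genes and other ERF factors have the medians farthest to the right, and the kinases the one farthest to the left.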

How the data were processed

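The authors deposited raw read counts for 32833 genes in 573 wells, as whole numbers with no normalization. Per the submitters' processing notes the genome was TAIR10, and reads were single-end with a length of 150 bases, per the labels' protocols. The aligner, the counting rule and its strand setting are not given in the labels, file headers or notes at hand. PCR copies were counted as reads, as no molecular identifier is mentioned, and all intervals (exact 95%, Clopper-Pearson for shares) cover counting error only. No 2 cells had the same counts.

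Wells with at least 500 genes with a read were kept as cells, whatever their organelle share. Doublets were not called. A column is a single well, and whether a well held more than 1 cell was not checked. Counts were scaled to CPM within each cell. Marker classes needed 2 detected markers. Differences used log2(CPM + 10) and were called at 1 or more with the same direction on 3 flow cells. Correlations were Spearman's within each flow cell, then averaged. Thinned cells were drawn to 115851 reads, the percentile 20 of cell totals (seed 1), which left out 65 cells. Gene positions, exon lengths and 250-base upstream windows came from RefSeq on TAIR10.1, matched by gene ID for all 10 genes and for all 234 list genes. The count table gives no coordinates, and the class and correlation steps were tested on simulated data. Class membership was drawn at random there and the changes were large. The simulation therefore does not cover classes that differ in genes read, or differences near the limit. Python 3.11.15, numpy 2.4.6, pandas 2.3.3 and scipy 1.17.1 were used.

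The 10 genes and all lists were chosen with earlier results of these data known. The text names the 10 genes, up to 4 genes per list that were read in the most cells, the 10 genes most like the summed rank and the 2 most like each gene. WRKY60, PAD3, SZF1, single marker genes and the genes without a read in any well were named outside this rule, after their values were seen. Alternatives were other gene limits, thinning, leaving out each flow cell, other pseudocounts, 3 markers, no filter on low genes, ratios of mean CPM, a limit of 5 reads and CPM over nuclear genes. Added after the data had been seen were the pericycle class without SKOR or without PHO1, and the cells deep enough for thinning with all their reads.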

Additional observations from a re-analysis of the deposited data

How the results depend on the processing

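No paired analysis was possible because the labels and files used here do not link wells to the labelled replicates, and the planned edgeR quasi-likelihood test and replicate block were not run for the same reason. The share of cells with 5 or more of the genes was 62.1% among wells with at least 2000 genes and 49.4% when 5 reads were needed. The median correlation of the 45 pairs was 0.177 to 0.188 when each flow cell was left out in turn. The counts of genes called by marker class moved most, and the cause was not tested. In pericycle marker cells the count of higher genes was 2 to 6 with each flow cell left out, 5 with 3 markers, 5 without PHO1 among the markers (added after seeing the data), 7 with a pseudocount of 1 CPM, 1 with 100 CPM and 1 with ratios of means. With a pseudocount of 1 CPM it was 1 for vascular precursor, 1 for phloem, 3 for endodermis, 2 for S phase and 5 for lateral root regulators. Leaving out each flow cell gave 0 to 1 for vascular precursor, phloem and S phase and 0 to 2 for endodermis, and 3 markers gave 3 for endodermis. The count of lower genes was 0 to 2 without 1 flow cell and 0 with 100 CPM in G2 and M phase, and 1 with ratios of means in S phase. In cells with lateral root regulators it was 1 higher gene with at least 1000 genes in a well, and 0 with at least 2000 genes, 3 markers, 100 CPM, ratios of means or thinning. WRKY33 (-0.26) and ZAT12 (-0.042) turned negative there with at least 2000 genes. Among values of single genes under an alternative, 190 stayed within the limit for their kind, 41 did not and these 2 changed sign. The limit was the exact interval for shares of cells and the SD between flow cells for mean CPM. For called differences it was a size of at least 1, and whether the gene was still called did not count. In the order of levels per kilobase 8 to 10 of the genes kept their place under every alternative, and 7 to 10 of the 10 most similar genes were shared. WRKY8 rests on 33 cells, and a cell without a read may still hold the transcript.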

Other observations

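Several well-known genes of the same pathways had no read in any of the 573 wells. They were the jasmonate regulator MYC2, AT5G51190 of the ERF family, SIB2, a WRKY33 partner, the camalexin gene CYP71A13, the defensin gene PDF1.2 and GATA23, an early gene of lateral root initiation. Of the 4660 annotated genes without a read, 51.7% overlapped another annotated gene, against 28.6% of the 27888 annotated genes with at least 1 read. MYC2, AT5G51190, SIB2 and CYP71A13 overlap another gene, while PDF1.2 and GATA23 do not. A listing at 0 for an overlapping gene in this table therefore cannot be read as absence of its transcript, since the counting rule is not given, and the part of that rule was not tested. WRKY33, WRKY40 and WRKY53 overlap other genes and did have reads.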
